A study of Mus musculus with 4 samples.

Results

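Egr1, Egr2, Egr3, Nr4a1, Nr4a2, Nr4a3, Ier2, Ier3, Ier5 and Atf3 are immediate early genes outside the AP-1 family, and were followed here in 4 mouse tumours. These 10 genes were taken by symbol from the 43432 genes of the count matrix, and each symbol matched a single Ensembl ID. The tumours were subcutaneous 9464D-GD2 neuroblastomas of female C57BL/6 mice, grown from a GD2-bearing derivative of 9464D, a line from TH-MYCN transgenic mice. GD2 is a ganglioside of the cell surface. In the dinutuximab group 2 mice were dosed with 25 µg of dinutuximab, a monoclonal antibody against GD2, and in the sEV group 2 mice were dosed with 25 µg of dinutuximab and 20 µg of small extracellular vesicles (sEVs) from 9464D-GD2 cells. Mice were dosed 2 times per week and received 5 treatments. All 4 mice thus received the antibody, no untreated tumour was analysed here, and all tumours derive from the same cell line. The sEV group thus differs from the dinutuximab group by the vesicles, which the series title ties to resistance. Tumours are numbered 3 and 4 in each group by the labels.

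Immediate early genes are transcribed within minutes of a stimulus, without new protein synthesis, because the factors that switch them on are already present in the cell. Growth factors, calcium and stress act through kinases of the MAPK pathways on the serum response factor SRF and its ETS partners, which bind CArG boxes, and on CREB family proteins, which bind cyclic AMP response elements (CREs). EGR proteins are zinc finger transcription factors, NR4A proteins are orphan nuclear receptors that act without a known physiological ligand, IER genes encode small proteins induced by growth factors and stress, and ATF3 is a basic leucine zipper factor of the stress response. Their transcripts are short-lived, and in tissue they are also known to rise after excision, cooling or warming. The time from excision to freezing was not given in the sources used here. The tissue was flash frozen, per the labels' protocols.

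Promoter sequences from RefSeq (GRCm38.p6) were matched for 7 of the 10 genes, in 11 windows. The 250 bases before each start were searched on both strands for the CRE (TGACGTCA), its core (TGACG, which the full CRE contains), the NR4A monomer site (AAAGGTCA), EGR sites (GCGTGGGCG or GCGGGGGCG), AP-1 sites (TGACTCA or TGAGTCA), the TATA box (TATAAA) and the SRF CArG box. Printed here are 1 of the 5 windows of Egr2, the only EGR gene with a match, and the windows of the 3 NR4A genes, whose windows have the same number of CRE cores. Capitals mark matches, and each stretch is given 5′ to 3′ on the strand of the gene, outside annotated exons.
Egr2, chr10:67537619-67537868, plus strand: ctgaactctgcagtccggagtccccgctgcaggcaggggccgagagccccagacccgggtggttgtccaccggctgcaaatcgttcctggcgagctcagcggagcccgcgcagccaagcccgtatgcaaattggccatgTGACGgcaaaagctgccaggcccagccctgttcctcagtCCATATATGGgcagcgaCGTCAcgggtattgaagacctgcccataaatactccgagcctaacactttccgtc
Nr4a1, chr15:101266596-101266845, plus strand: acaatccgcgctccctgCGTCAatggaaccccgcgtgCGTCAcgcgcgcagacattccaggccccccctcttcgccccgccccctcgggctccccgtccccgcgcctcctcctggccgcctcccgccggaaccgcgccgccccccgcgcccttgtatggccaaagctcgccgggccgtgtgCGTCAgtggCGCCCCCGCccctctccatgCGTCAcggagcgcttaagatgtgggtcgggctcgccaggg
Nr4a2, chr2:57124004-57124253, minus strand: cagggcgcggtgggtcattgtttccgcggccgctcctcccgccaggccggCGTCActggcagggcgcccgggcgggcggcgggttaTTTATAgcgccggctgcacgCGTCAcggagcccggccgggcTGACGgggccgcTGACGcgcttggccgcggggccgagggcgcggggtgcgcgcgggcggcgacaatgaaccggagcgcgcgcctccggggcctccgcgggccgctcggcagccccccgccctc
Nr4a3, chr4:48045055-48045152, plus strand: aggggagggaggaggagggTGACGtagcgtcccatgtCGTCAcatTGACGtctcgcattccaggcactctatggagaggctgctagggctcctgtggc

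The Egr2 window shown had a CArG box 72 bases before its start and CRE cores 111 and 55 bases before it. Of the other Egr2 windows, the 2 that overlap it most (from 67537620 and 67537680) held the same matches, the one from 67537316 had a CArG box and no CRE core, and the one from 67535249, at the annotated start of the gene, had none of the motifs. A CArG box was found in 1.47% of 32851 windows of the same length, and a CRE core in 17.8%. Each NR4A window had 4 CRE cores, 3 of which stand in the stretch printed for Nr4a3, and at least 4 cores were found in 0.137% of windows, some of which overlap because a gene can have several starts. The Nr4a1 window also had an EGR site, 60 bases before the start, which 3.06% of windows had. The Ier3 and Ier5 windows had none of the searched motifs, and a full CRE was in none of the 11. These are matches of letters, not binding sites.

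The 10 genes are protein-coding, and no exon of another gene annotated in GENCODE M21 (GRCm38) overlapped theirs. Egr1 (ENSMUSG00000038418) spans 34859823 to 34864984 on chromosome 18, Egr2 (ENSMUSG00000037868) 67535475 to 67542188 on chromosome 10, and Egr3 (ENSMUSG00000033730) 70077203 to 70082614 on chromosome 14, all on the plus strand. Nr4a1 (ENSMUSG00000023034) spans 101254269 to 101274795 on chromosome 15 and Nr4a3 (ENSMUSG00000028341) 48045153 to 48086447 on chromosome 4 (plus strand for each), and Nr4a2 (ENSMUSG00000026826) 57106830 to 57124003 on the minus strand of chromosome 2. Ier2 (ENSMUSG00000053560) spans 84661331 to 84662852 on the minus strand of chromosome 8 and Ier3 (ENSMUSG00000003541) 35821684 to 35822923 on the plus strand of chromosome 17. Chromosome 1 holds Ier5 (ENSMUSG00000056708) at 155096361 to 155099636 and Atf3 (ENSMUSG00000026628) at 191170296 to 191218039, minus strand for each. The genes were short, with a median span of 6063 bp against 23662 bp over 12310 tested protein-coding genes. Of the 10, 6 spanned under 10 kb, against 24.2% of those genes. Ier2 and Ier5 consist of exon only.

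Libraries held between 24452699 and 28187573 counts, with 18818 to 19164 genes detected. Levels are CPM (counts scaled to the same library total) at the library size adjusted by the trimmed mean of M values (TMM). Fold changes are log2 values of the sEV group over the dinutuximab group, computed in edgeR. Their SE (standard error) was derived from the test, as the absolute log2 fold change divided by the square root of its F statistic. Genes with low counts were removed, which left 13823 genes to test, and p-values were adjusted over all of them. Of the neuroblastoma markers, Hand2 stood between 145 and 172 CPM and Isl1 between 15.7 and 21.4 CPM, while Dbh had no counts in any tumour and Th, tyrosine hydroxylase, had 0, 3, 1 and 0. Tumours are described as biological replicates in the design text. The p-values set group differences against the spread between these tumours only, with each gene's variance drawn towards that of other tested genes. With 2 against 2, an exact two-sided permutation test of a single gene cannot go below p = 0.333, so none was used.

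Egr1, Egr2, Nr4a1, Ier5 and Atf3 had lower levels in both sEV tumours than in either dinutuximab tumour, while Egr3, Nr4a2, Nr4a3, Ier2 and Ier3 overlapped between the groups. Over all genes tested, 16.5% were lower and 18.1% higher without overlap. Of the 9 tested genes, all had negative fold changes, against 49.7% of all genes, and their median was -0.37, against 0.00 over all genes. At an unadjusted p under 0.05 in edgeR's quasi-likelihood test, 5 of the 9 were lower and 0 higher, against 3.10% of all genes lower and 2.47% higher (limma-voom and DESeq2 also gave 5 lower). No gene passed after adjustment: with the Benjamini-Hochberg method at 0.05, 0 of 13823 genes were lower and 0 higher, and the smallest adjusted p of the 9 was 0.387, for Egr1. Without sEV tumour 4 the median of the 9 was -0.19, and without dinutuximab tumour 3 it was -0.60. In bulk tissue, fewer cells that express a gene and less RNA per cell cannot be told apart.

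**Figure D1:**
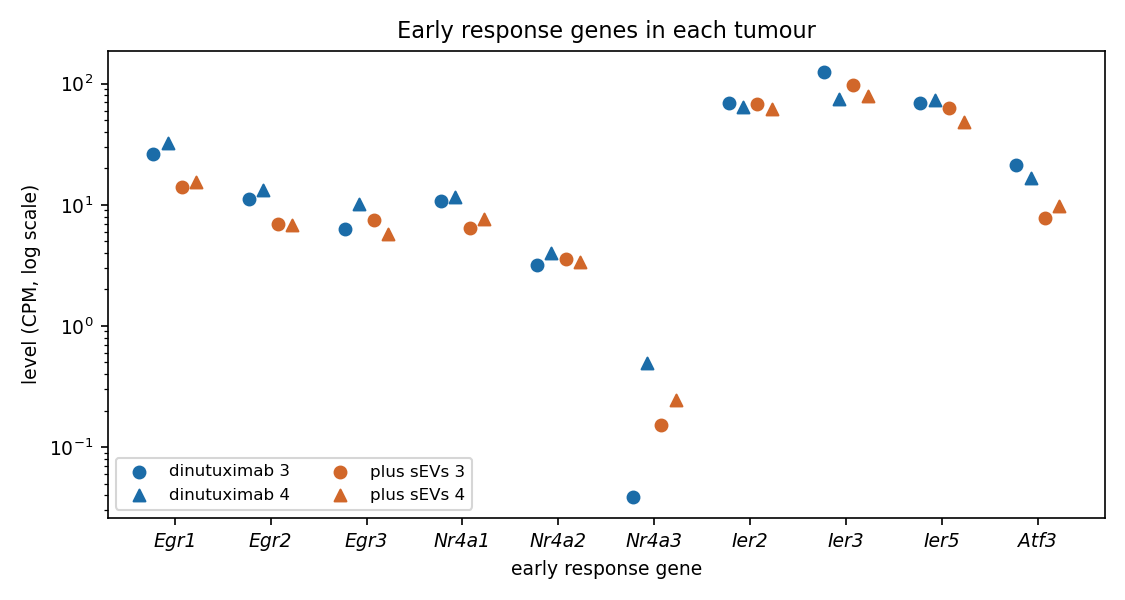
Level of each early response gene in CPM (log axis) in each of the 4 tumours; blue marks dinutuximab and orange dinutuximab plus sEVs, circles tumour 3 and triangles tumour 4. Both orange points lie below both blue points for Egr1, Egr2, Nr4a1, Ier5 and Atf3, and the colours overlap for the other 5 genes.

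Egr1, the most studied EGR factor and a direct reader of MAPK and SRF signalling, was measured at 26.1 and 32.4 CPM in dinutuximab tumours 3 and 4 and at 14.1 and 15.5 CPM in sEV tumours 3 and 4. The group means were 29.2 ± 4.47 and 14.8 ± 0.988 CPM (SD, n = 2). Both sEV tumours were below both dinutuximab tumours, and the log2 fold change was -0.98 ± 0.17 (SE), or 1.97-fold lower. It ranked at place 13 by p among all genes and did not pass in edgeR's quasi-likelihood test (adjusted p = 0.387). The log2 ratio of tumour 4 to tumour 3 was 0.31 with dinutuximab and 0.14 with sEVs, smaller than the difference between groups.

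Egr2, known for its part in myelination by Schwann cells and in lymphocytes and myeloid cells, was measured at 11.2 and 13.2 CPM with dinutuximab and at 6.95 and 6.76 CPM with sEVs. The groups did not overlap and the sEV tumours were almost equal. The log2 fold change was -0.83 ± 0.20, or 1.78-fold lower (edgeR adjusted p = 0.535). Egr3, which is itself induced by EGR1 in several cell types, was measured at 6.27 and 10.1 CPM with dinutuximab and at 7.52 and 5.79 CPM with sEVs. Its groups overlapped, and the 2 dinutuximab tumours differed by 0.69 on the log2 scale, more than the groups did (-0.30 ± 0.28, edgeR adjusted p = 0.926). The 3 EGR genes together summed to 43.5 and 55.7 CPM with dinutuximab and to 28.6 and 28.0 CPM with sEVs. Egr4, the other member of the family, had no counts in any tumour.

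The EGR corepressors NAB1 and NAB2 bind EGR1, EGR2 and EGR3, and Nab2 is itself an EGR target. Nab2 stood at 125 and 159 CPM with dinutuximab and at 118 and 96.5 CPM with sEVs, without overlap (-0.41 ± 0.16, edgeR adjusted p = 0.850). Nab1 stood at 93.7 and 86.8 CPM against 75.5 and 85.6 CPM (-0.16 ± 0.13), and its groups were apart by little more than 1 CPM.

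Nr4a1, which encodes the receptor NUR77 and is induced in macrophages, lymphocytes and neural cells, was measured at 10.8 and 11.5 CPM with dinutuximab and at 6.46 and 7.66 CPM with sEVs. The groups did not overlap, and the within-group log2 ratios were 0.09 and 0.25 against -0.66 ± 0.21 between the groups, or 1.58-fold lower (edgeR adjusted p = 0.720). Nr4a2, which encodes NURR1, a factor of dopaminergic neurons that is also induced by inflammatory signals, was measured at 3.20 and 3.97 CPM with dinutuximab and at 3.59 and 3.40 CPM with sEVs. Both sEV values lay between the dinutuximab values (-0.04 ± 0.28, edgeR adjusted p = 0.993). Nr4a3, which encodes NOR1, had 1 and 12 counts with dinutuximab and 4 and 7 with sEVs. At no more than 0.491 CPM in any tumour it did not pass the filter on low counts, and no fold change is given. The difference between the fold changes of Nr4a1 and Nr4a2 was not tested.

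Ier2, a nuclear protein gene that is among the fastest to be induced, was measured at 69.1 and 64.6 CPM with dinutuximab and at 68.3 and 61.8 CPM with sEVs. The values alternated between the groups, and the log2 fold change of -0.04 ± 0.13 had the smallest SE of the 9 (edgeR adjusted p = 0.980). Ier3, also called IEX-1, a regulator of cell survival under NF-kB control, was measured at 125 and 75.3 CPM with dinutuximab and at 98.5 and 78.9 CPM with sEVs. Dinutuximab tumour 3 had the highest value and dinutuximab tumour 4 the lowest, so that both sEV tumours lay between them (-0.18 ± 0.23, edgeR adjusted p = 0.947). Without dinutuximab tumour 3 the fold change of Ier3 was 0.24. Ier5, whose product takes part in the heat shock response through HSF1, was measured at 69.0 and 73.8 CPM with dinutuximab and at 62.5 and 48.3 CPM with sEVs. The groups did not overlap, but the sEV tumours differed by about as much (log2 ratio -0.37) as the groups did (-0.37 ± 0.16, edgeR adjusted p = 0.882), and without sEV tumour 4 its fold change was -0.19.

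Atf3, a stress-induced factor that often represses inflammatory genes and that pairs with AP-1 proteins, was measured at 21.2 and 16.7 CPM with dinutuximab and at 7.79 and 9.84 CPM with sEVs. The groups did not overlap. The means were 19.0 ± 3.12 and 8.82 ± 1.45 CPM (SD, n = 2), or 2.15-fold lower with sEVs. The log2 fold change of -1.10 ± 0.21 was the most negative of the 9, and it did not pass (edgeR adjusted p = 0.404). Within groups the log2 ratio of tumour 4 to tumour 3 was -0.34 with dinutuximab and 0.34 with sEVs. Jdp2, the closest relative of ATF3 among the ATF and related factors listed, stood at 26.1 and 25.3 CPM against 16.0 and 18.6 CPM (-0.57 ± 0.16, edgeR adjusted p = 0.646). Over the 12 tested relatives and partners of the 10 genes (EGR corepressors, ATF factors and others) the median was -0.10. At an unadjusted p under 0.05, 2 were lower and 0 higher, against 3.10% and 2.47% of all tested genes.

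**Figure D2:**
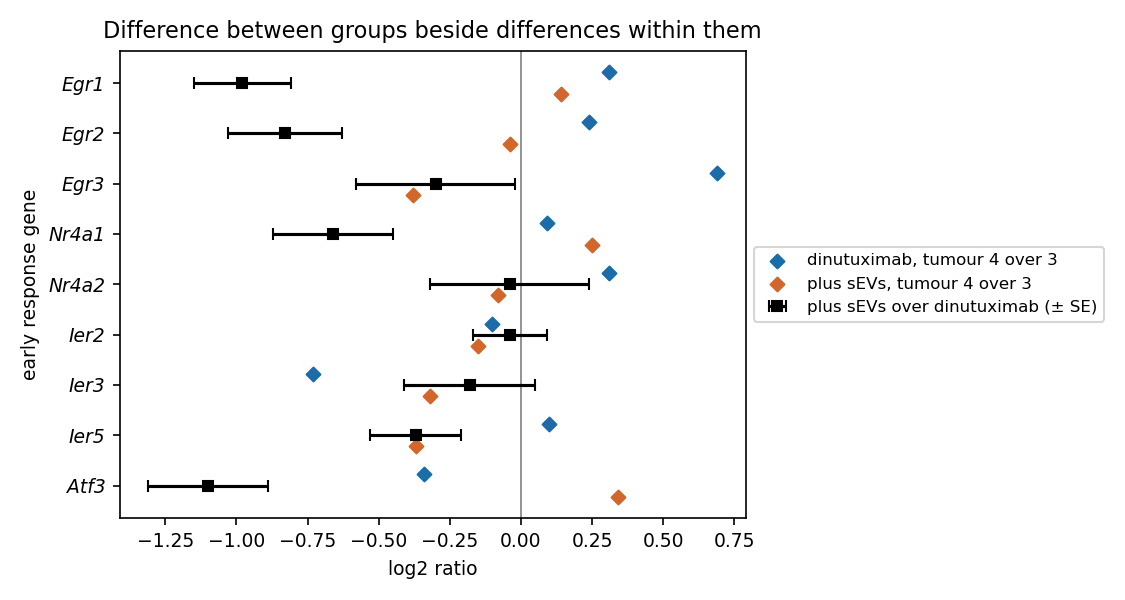
Log2 ratio between the groups (black squares, bars are the SE) and within each group (diamonds, tumour 4 over tumour 3; blue dinutuximab, orange plus sEVs) for the 9 tested early response genes. For Egr1, Egr2, Nr4a1 and Atf3 the black square is farther from 0 than both diamonds.

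Across all tested genes the median absolute log2 ratio of tumour 4 to tumour 3 was 0.21 with dinutuximab and 0.18 with sEVs, and over the 9 tested early response genes it was 0.31 and 0.25. For Egr1, Egr2, Nr4a1 and Atf3 the difference between groups exceeded both within-group differences. For Egr3, Ier2, Ier3, Nr4a2 and Ier5 it did not. The share of all tested genes in which it exceeded both was not counted, so these genes cannot be set against it.

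Calls depended on the tool and on single libraries. DESeq2 called Egr1 (adjusted p = 0.00317) and Atf3 (adjusted p = 0.00611) lower, among 0.275% of genes called lower and 0.123% called higher. With no filter on low counts edgeR called Egr1, Atf3 and Egr2, among 0.704% of genes called lower. edgeR called these 2 genes without sEV tumour 3 (0.592% of genes lower) and without sEV tumour 4 (1.10% of genes lower), with edgeR adjusted p of 0.0149 and 0.00138 for Egr1 and 0.0308 and 0.00029 for Atf3. Without dinutuximab tumour 3 or dinutuximab tumour 4 edgeR called 0 genes, and limma-voom called 0 with all tumours. Over these 4 omissions the fold change ranged from -1.13 to -0.82 for Egr1, from -1.28 to -0.93 for Atf3, from -0.94 to -0.71 for Egr2 and from -0.79 to -0.55 for Nr4a1. Egr3, Nr4a2, Ier2 and Ier3 changed sign in at least 1 omission.

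**Figure D3:**
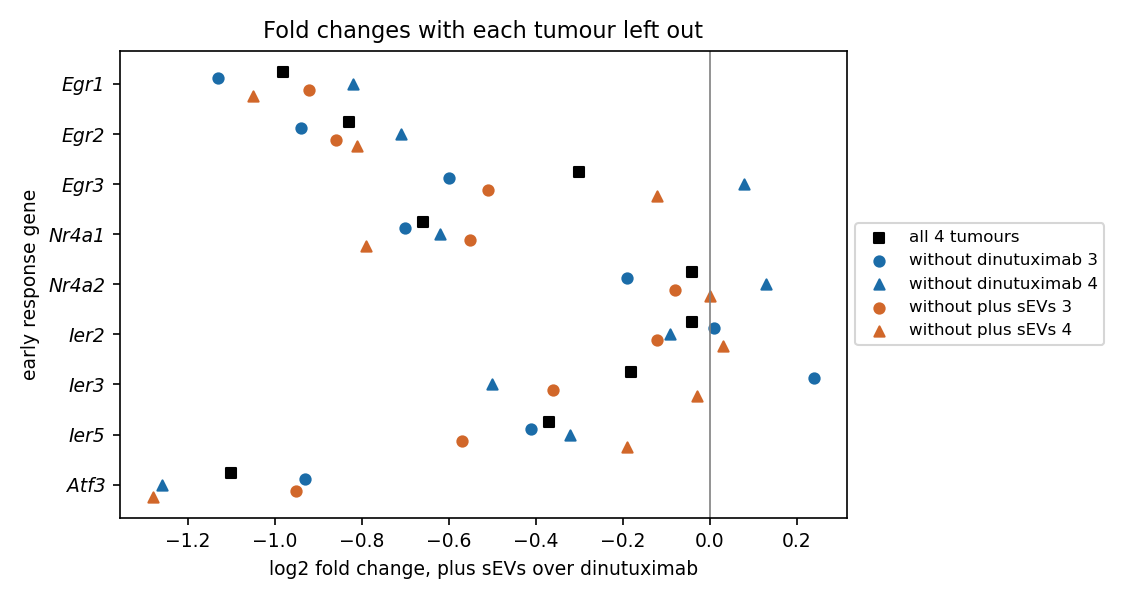
Log2 fold change of the 9 tested early response genes with all 4 tumours (black squares) and with each tumour left out in turn (coloured symbols). All points of Egr1, Egr2, Nr4a1, Ier5 and Atf3 lie below 0, while points of Egr3, Nr4a2, Ier2 and Ier3 reach 0 or above.

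Levels of different genes were compared as CPM per kilobase of annotated exon. Averaged over the 4 tumours, Ier3 was highest at 83.6 ± 20.3 CPM per kilobase (SD, n = 4), followed by Ier2 at 43.3 ± 2.23 and Ier5 at 19.4 ± 3.38. These were higher than 94.9%, 90.2% and 78.3% of the tested genes. The ranges of these 3 did not overlap with each other or with those of the other genes. Atf3 (6.45 ± 2.87), Egr1 (4.91 ± 1.95), Egr2 (2.80 ± 0.937), Nr4a1 (2.60 ± 0.695) and Egr3 (1.69 ± 0.439) came next, and the ranges of neighbours in this order overlapped. Nr4a2 (0.872 ± 0.0815) and Nr4a3 (0.0387 ± 0.0321) each lay below all values of the gene before it. The IER genes thus held the top 3 places on this scale, while the most negative fold changes were those of Atf3, Egr1, Egr2 and Nr4a1, at intermediate levels.

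AP-1 subunit genes, with which early response genes are usually induced, had negative values in 7 of 7 cases (median -0.21), 3 of them (Fosl2, Junb and Fosb) at an unadjusted p under 0.05. Fos, often the most inducible of them, stood at 3.27 and 4.09 CPM with dinutuximab and at 2.71 and 4.16 CPM with sEVs and overlapped (-0.10 ± 0.32), while Fosl2 was lower without overlap (-0.97 ± 0.14, edgeR adjusted p = 0.360). Of 44 tested genes on a list of other early response genes, 35 had negative fold changes (median -0.30), and at an unadjusted p under 0.05 14 were lower and 1 higher. The groups did not overlap in 26 of the 44 on the lower side and in 2 on the higher side. The 1 gene higher at an unadjusted p under 0.05 was Per2, a clock gene, at 0.429 and 0.287 CPM against 2.22 and 0.763 CPM. By lowest p these were Ccn2, which encodes the matrix protein CTGF, at 10.7 and 5.98 CPM against 2.83 and 2.11 CPM (-1.76 ± 0.34), Bhlhe40, a repressor of the clock and of hypoxia responses, at 134 and 131 CPM against 90.0 and 72.7 CPM (-0.71 ± 0.15), and Areg, which encodes the EGF receptor ligand amphiregulin, at 39.8 and 34.8 CPM against 16.7 and 25.2 CPM (-0.83 ± 0.21). None passed in edgeR's test after adjustment (adjusted p of 0.463, 0.463 and 0.548). For comparison, 49.7% of all tested genes had negative fold changes, and 16.5% were lower and 18.1% higher without overlap. At an unadjusted p under 0.05, 3.10% of all tested genes were lower and 2.47% higher.

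The factors and kinases upstream of these genes had a median of -0.09 over 16 tested genes. At an unadjusted p under 0.05, 2 were lower and 0 higher, against 3.10% and 2.47% of all tested genes. Those 2 were Srf, at 62.2 and 62.9 CPM against 42.2 and 50.5 CPM (-0.43 ± 0.14), and its ETS partner Elk4, at 41.6 and 45.1 CPM against 30.9 and 35.6 CPM (-0.38 ± 0.15), both without overlap (edgeR adjusted p = 0.738 and 0.841). Mapk14, the kinase p38 alpha, was higher without overlap, at 75.1 and 93.4 CPM against 97.6 and 97.8 CPM (0.21 ± 0.15, edgeR adjusted p = 0.909). Of the 16 genes, 4 were lower and 1 higher without overlap, against 16.5% and 18.1% of all tested genes. MAPK feedback genes, phosphatases of the DUSP family and Sprouty and Spred proteins that are themselves induced by ERK, had a median of -0.12 over 13 tested genes with 1 lower and 0 higher at an unadjusted p under 0.05. That gene was Dusp4, at 90.5 and 105 CPM against 78.1 and 65.5 CPM (-0.45 ± 0.15, edgeR adjusted p = 0.738), while Dusp6, a feedback phosphatase for ERK, stood at 103 and 104 CPM against 124 and 104 CPM (0.14 ± 0.14).

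Atf3 is also a target of ATF4 in the integrated stress response. All 13 tested genes of the list of ATF4 and its targets had negative values (median -0.52), against 49.7% of all tested genes. At an unadjusted p under 0.05, 10 of the 13 were lower, against 3.10% of all tested genes. After adjustment in edgeR's test 0 passed. Asns, asparagine synthetase, had -1.04 ± 0.16, Trib3, a stress-induced pseudokinase, -0.94 ± 0.16, and Chac1, a glutathione-degrading enzyme, -1.88 ± 0.40. Atf4 itself, which is regulated mainly in translation, stood at 308 and 294 CPM against 295 and 254 CPM (-0.13 ± 0.13). ATF4 protein was not measured here, and its part in the level of Atf3 was not tested.

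**Figure D4:**
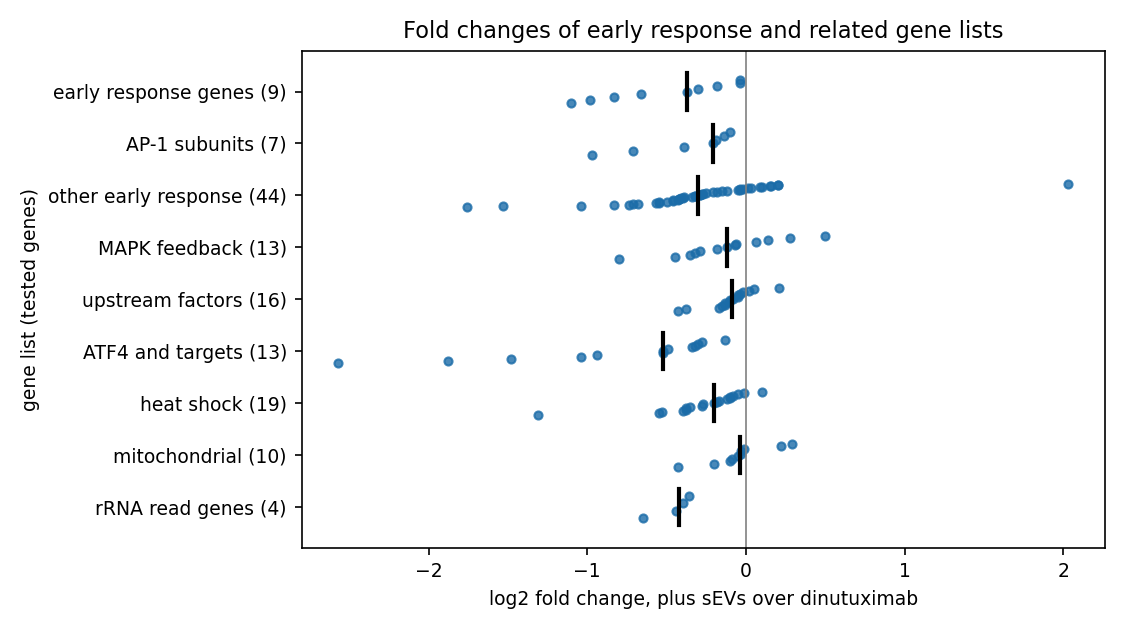
Log2 fold change of each tested gene (points) and the median (black bar) for the early response genes and 8 other lists, with the number of tested genes in brackets. The medians lie between -0.52 for ATF4 and its targets and -0.04 for mitochondrially encoded genes.

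Values that also read tissue handling and RNA quality are given here for the same tumours, and their part in the results was not tested. Heat shock genes had a median of -0.20, with 18 of 19 negative and 2 (Hspa4l and Hspb8) lower at an unadjusted p under 0.05, and summed to 9148 and 8130.2 CPM with dinutuximab and to 7378 and 8120.0 CPM with sEVs. The inducible genes Hspa1a and Hspa1b, which respond to warming and protein damage, had their lowest values in sEV tumour 3. Hspa1a stood at 5.50 and 2.87 CPM with dinutuximab and at 0.535 and 2.81 CPM with sEVs. Hspa1b stood at 14.0 and 13.0 CPM with dinutuximab and at 4.47 and 13.8 CPM with sEVs. Hspa1b overlapped between the groups. Hspa1a did not, but only narrowly, at 2.87 CPM in dinutuximab tumour 4 against 2.81 CPM in sEV tumour 4. Of the 19 heat shock genes, 7 were lower without overlap. Across all tested genes 16.5% were lower and 18.1% higher without overlap. Of the same genes 49.7% had negative values, and 3.10% were lower at an unadjusted p under 0.05. Of the AP-1 genes, which are also known to rise with handling, 6 of 7 were lower without overlap, among them Fosb at 3.27 and 3.48 CPM against 1.95 and 2.18 CPM, while Fos overlapped. Of the 44 other early response genes 26 were lower and 2 higher without overlap, while Zfp36 overlapped (8.96 and 8.48 CPM against 7.79 and 10.9 CPM). Dusp1, a phosphatase induced by stress, was lower without overlap, at 17.1 and 13.8 CPM against 13.0 and 11.3 CPM.

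A list of annotated genes chosen for ribosomal RNA reads made up 5.72% and 5.97% of the dinutuximab libraries. It made up 4.77% and 4.07% of the sEV libraries, mostly through Gm42418 in both groups. The list includes Lars2, the gene of the mitochondrial leucyl-tRNA synthetase, at 4772 and 5134 CPM against 4089 and 3427 CPM. How many of the counts of the listed genes came from ribosomal RNA was not tested. Of 17 listed genes found in the matrix, 10 had no counts and only 4 were tested. The untested genes had no more than 9 counts in any tumour. All 4 tested genes were lower without overlap and at an unadjusted p under 0.05 (median -0.42), against 16.5% and 3.10% of all tested genes. With library sizes that left the listed genes and the mitochondrial genes out, the median of the early response genes was -0.35. Mitochondrially encoded genes took between 0.663% and 0.709% of counts in the 4 tumours. Their median was -0.04 over 10 tested genes, with 0 lower or higher at an unadjusted p under 0.05. The counts were very uneven between these genes. While mt-Co1 had between 47967 and 55047 counts per tumour, mt-Co2 had between 26 and 32 and mt-Co3 between 15 and 27. The share is thus one of counts assigned to these genes and may differ from the mitochondrial share of the RNA. Why some had so few counts was not tested.

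**Figure D5:**
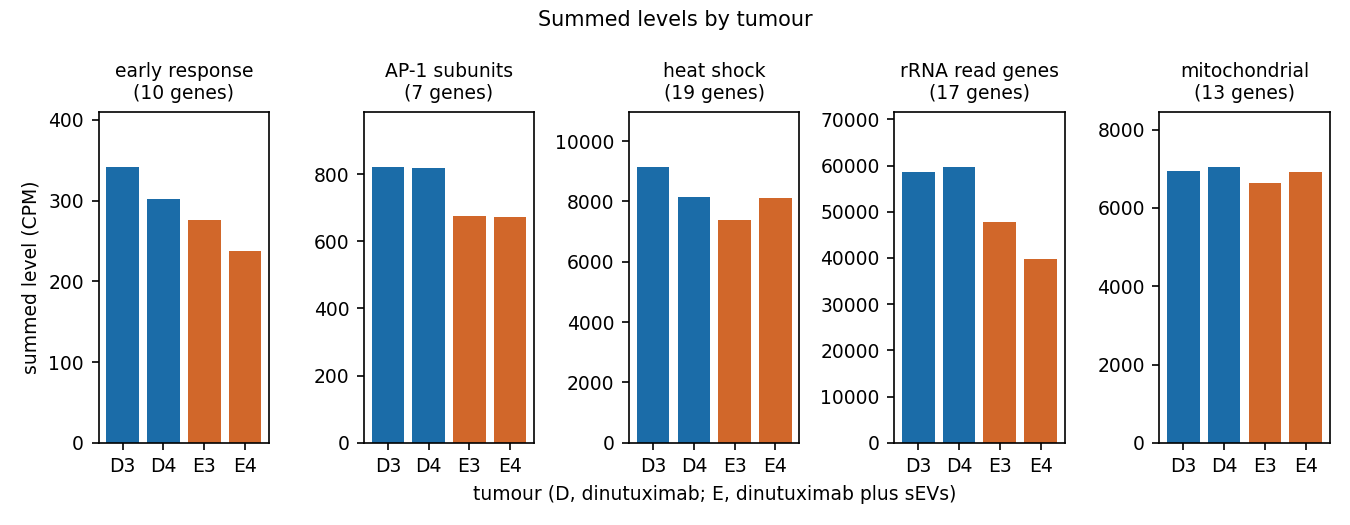
Summed CPM of the 10 early response genes, 7 AP-1 subunits, 19 heat shock genes, 17 genes listed for ribosomal RNA reads (10 of them without counts) and 13 mitochondrial genes in each tumour (D, dinutuximab; E, dinutuximab plus sEVs), each panel on its own axis from 0. Both E bars are below both D bars for the first 2 lists and for the ribosomal RNA read genes, and heat shock genes reach nearly the same height in D4 and E4.

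Early response genes are expressed by many cell types, and the levels of their markers differed between the same tumours. Macrophage markers had 11 of 12 positive values, 3 of them (Fcgr1, Lyz2 and Mrc1) at an unadjusted p under 0.05 (median 0.21, 2730.1 and 3105 against 3503 and 3485 CPM summed). Endothelial markers had 12 of 13 negative values, with Pecam1 and Flt1 at an unadjusted p under 0.05 (median -0.48, 187 and 214 against 165 and 156 CPM). Fibroblast and mural markers had 9 of 12 negative values (median -0.63). At an unadjusted p under 0.05, 6 of them were lower and 2 (Col3a1 and Dcn) higher. The lowest p was that of Acta2 (-2.04 ± 0.40), at 27.7 and 10.6 CPM against 5.12 and 4.19 CPM. The summed level of this list, set mainly by Col3a1 and Dcn, was 699 and 672 against 925 and 761 CPM. Neuroblastoma markers summed to 673 and 578 against 737 and 576 CPM (median 0.02 over the 7 tested). Skeletal muscle markers were low (25.0 and 24.8 against 17.4 and 15.7 CPM, all 7 tested negative) and red blood cell markers stood higher with sEVs (35.2 and 21.5 against 71.1 and 43.6 CPM, all 6 tested positive). T and NK cell markers summed to between 5.42 and 14.2 CPM (median 0.40 over 7 tested) and neutrophil markers to between 3.08 and 5.96 CPM (median 1.42 over 3 tested), with Ly6g and Elane at 0 counts in all 4 tumours. Among all tested genes 49.7% had negative values, and 3.10% were lower and 2.47% higher at an unadjusted p under 0.05. No marker passed after adjustment in edgeR's test, and the part of these cell types in the levels of the early response genes was not tested.

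Genes whose profile over the 4 tumours was nearest to that of Egr1 were Hk2, Cxcr4 and Fosl2, at a root mean square distance of 0.0437, 0.0756 and 0.0807 on the log2 scale among 10272 genes with a mean of at least 5 CPM. Hk2, a hexokinase, stood at 96.8 and 117 CPM against 49.6 and 59.2 CPM, and Cxcr4, a chemokine receptor, at 13.8 and 17.1 CPM against 8.17 and 9.15 CPM. Nearest to Nr4a1 were F11r, Bsn and Lpin1 (0.0445, 0.0530 and 0.0544). Nearest to Atf3 were Phlda2, Klhdc8a and Bgn (0.0951, 0.140 and 0.141), among which Phlda2 stood at 67.5 and 51.4 CPM against 27.9 and 34.8 CPM. With 4 libraries and this many genes, close profiles are found for many genes.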

How the data were processed

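Raw read counts for each Ensembl gene were deposited as 1 matrix of the 4 tumours and as 1 table for each tumour, and all 173728 values were equal in both. Messenger RNA libraries were made with an Illumina stranded kit, per the labels' protocols, and STAR, SAMtools and HTSeq with the mm10 build were used, per the submitters' processing notes. Their versions, the annotation and the strand option are not given in the sources used here. GENCODE M21 named 42548 of the IDs. Differences were fitted by edgeR 4.0.16 in R 4.3.3: filterByExpr defaults, TMM, and the quasi-likelihood F test with the group as the only term, adjusted by Benjamini-Hochberg over all genes. The script was tested on simulated data. Exon length was the union of annotated exons. The 10 genes and the other 17 lists (244 further genes) were chosen with earlier results of these data known; 4 listed names of ribosomal RNA read genes were not matched. Named were all 10 genes, up to 3 genes of lowest p of each list, and the 3 nearest profiles of Egr1, Nr4a1 and Atf3. The promoter windows shown, the count of CRE cores, the family sums, gene spans and the median over the 9 tested genes were chosen after values were seen. Nab1, Egr4, Per2, Fos, Dusp6, Atf4, Hspa1b, Zfp36, mt-Co1, mt-Co2 and mt-Co3 were named after their values were seen. So were the markers Dbh, Th, Col3a1, Dcn, Ly6g and Elane. A result on 1 withheld item is not reported here. The 16 alternatives included DESeq2 1.42.0 and limma-voom (limma 3.58.1) on the same filtered genes, other scalings and filters, and leaving out each tumour.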

Additional observations from a re-analysis of the deposited data

How the results depend on the processing

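Nr4a3, with no more than 12 counts in libraries of 24452699 to 28187573, was too low to test. Over all genes, edgeR called 0 higher and 0 lower. DESeq2 called 17 higher and 38 lower, the fit with no low-count filter 107 and 155, and fits without 1 tumour between 0 and 160 higher and between 0 and 156 lower. Of the early response genes 0 were lower after adjustment in the edgeR fit, 2 with DESeq2, 3 with no low-count filter (Egr1, Atf3 and Egr2, adjusted p = 0.0443 for Egr2), and between 0 and 2 without 1 tumour. Their median of -0.37 ranged from -0.60 to -0.19 without 1 tumour, and with the 3 other scalings and the library sizes without ribosomal RNA read and mitochondrial genes it stayed between -0.37 and -0.33. The cause was not tested. At an unadjusted p under 0.05, 4 or 5 were lower in every alternative. Signs changed for Egr3 (0.08) and Nr4a2 (0.13) without dinutuximab tumour 4, for Ier2 (0.01) and Ier3 (0.24) without dinutuximab tumour 3, and for Nr4a2 (0.00) and Ier2 (0.03) without sEV tumour 4. With the tumour number as a replicate block, 21 genes were higher and 46 lower, including 2 early response genes, Egr1 (adjusted p = 0.0163) and Atf3 (adjusted p = 0.0395). Deviations of same-numbered tumours correlated at 0.0659 over 13823 genes, and the labels do not say what the number means. Without 1 tumour Ier2 ranged from -0.12 to 0.03 and Ier3 from -0.50 to 0.24. Where a group was left with 1 tumour, it was assumed to vary like the other group.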
